A study of Rattus norvegicus with 6 samples.

Results

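Platelet-derived growth factor (PDGF) genes and genes used to recognise pericytes were compared between magnetically parted cells of the rat epididymis, a basal fraction and a non-basal one. The 8 genes were chosen by name: the ligand genes Pdgfa, Pdgfb, Pdgfc and Pdgfd, the receptor genes Pdgfra and Pdgfrb, and the pericyte genes Rgs5 and Cspg4. All 8 were measured, each by 1 probe set, among 18166 named genes. The fractions came from the epididymides of 3 Sprague-Dawley rats aged 48 days and were parted by magnetic separation, with no allele or treatment named for either. The basal fraction and the non-basal fraction, which is the remaining cells, were each hybridised to 3 Affymetrix RaGene 2.0 ST arrays. The labels name neither the surface molecule of the separation nor the rat behind each array, so the p-values measure only the spread between these arrays, which may be technical. Values are log2 units of robust multi-array average (RMA) expression, in which a difference of 1 is a doubling.

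PDGFs are secreted dimers that signal through receptor tyrosine kinases on neighbouring cells. Epithelia are a common source of PDGF-A and PDGF-C, endothelium of PDGF-B, whereas PDGF receptor alpha marks fibroblasts and PDGF receptor beta marks pericytes and smooth muscle. The system is known for paracrine signalling from epithelium or vessel lining to the mesenchymal cells around it, and pericytes are the mural cells that wrap small vessels.

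The markers of its label were higher in the basal fraction than in the non-basal one. The lists were written with earlier results of these data known, so the counts below describe the fractions and do not test the label. Principal and clear cell markers had a median log2 difference of -0.39, against 2.81 for basal epithelial and -3.88 for fibroblast markers. All 11 measured basal epithelial markers, such as Tp63 and Itgb4, were higher in the basal fraction, and all 12 fibroblast markers, 8 of 11 smooth muscle markers and 9 of 10 endothelial markers were lower. Of 11 leukocyte markers 5 were lower, and of 11 principal and clear cell markers 1 was lower. Of 6 Schwann cell markers none passed by limma (2 at an unadjusted p under 0.05). By the same test 7.71% of all genes were higher and 7.14% lower. Fewer fibroblast markers, 6 of 12, were lower when basal replicate 2, non-basal replicate 2 or non-basal replicate 3 was left out. Leukocyte markers that were lower numbered 3 when basal replicate 1 or 2 or non-basal replicate 2 or 3 was left out, and 9 when non-basal replicate 1 was. Principal and clear cell markers that were lower numbered 6 when basal replicate 3 was left out, 1 when non-basal replicate 1 was and 0 when any other array was. For Schwann cell markers the number was 3 when non-basal replicate 1 was left out and 0 when any other array was. In bulk fractions, fewer cells of a type and less RNA per cell cannot be told apart. Array medians lay between 6.63 and 6.70. Basal replicate 3 stood nearer to the non-basal arrays than the other basal arrays did. In it the fibroblast markers, each taken relative to its own mean over all arrays, averaged -0.884, against -2.45 and -2.05 in basal replicates 1 and 2. Principal and clear cell markers averaged 0.216 in it, against -0.466 and -0.403 in basal replicates 1 and 2. In non-basal replicates 1 to 3 they averaged 0.447, 0.036 and 0.17. Non-basal replicate 1 stood apart among the non-basal arrays. Its fibroblast markers averaged 1.14, against 2.20 and 2.05 in non-basal replicates 2 and 3.

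Of the 8 genes, 3 were higher in the basal fraction (Pdgfa, Pdgfb and Pdgfc), 3 were lower (Pdgfra, Pdgfrb and Rgs5) and 2 did not pass (Pdgfd and Cspg4). The test was limma with Benjamini-Hochberg adjustment over all genes at an adjusted p under 0.05, by which 14.9% of all genes were called, 7.71% higher and 7.14% lower. The values of the fractions did not overlap for 7 of the 8 genes, Pdgfd being the exception, 4 of them with the basal fraction on the higher side and 3 with it on the lower. Over all genes the fractions did not overlap for 32.9%, 17.6% higher and 15.3% lower in the basal fraction. Ligands and receptors thus lay on opposite sides, with 3 of 4 ligand genes higher and both receptor genes lower. Without basal replicate 3 and non-basal replicate 1, which stood apart, the same 6 calls held, and Cspg4 was called higher too. Those arrays were chosen from these same data, so this fit adds no separate support.

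**Figure D1:**
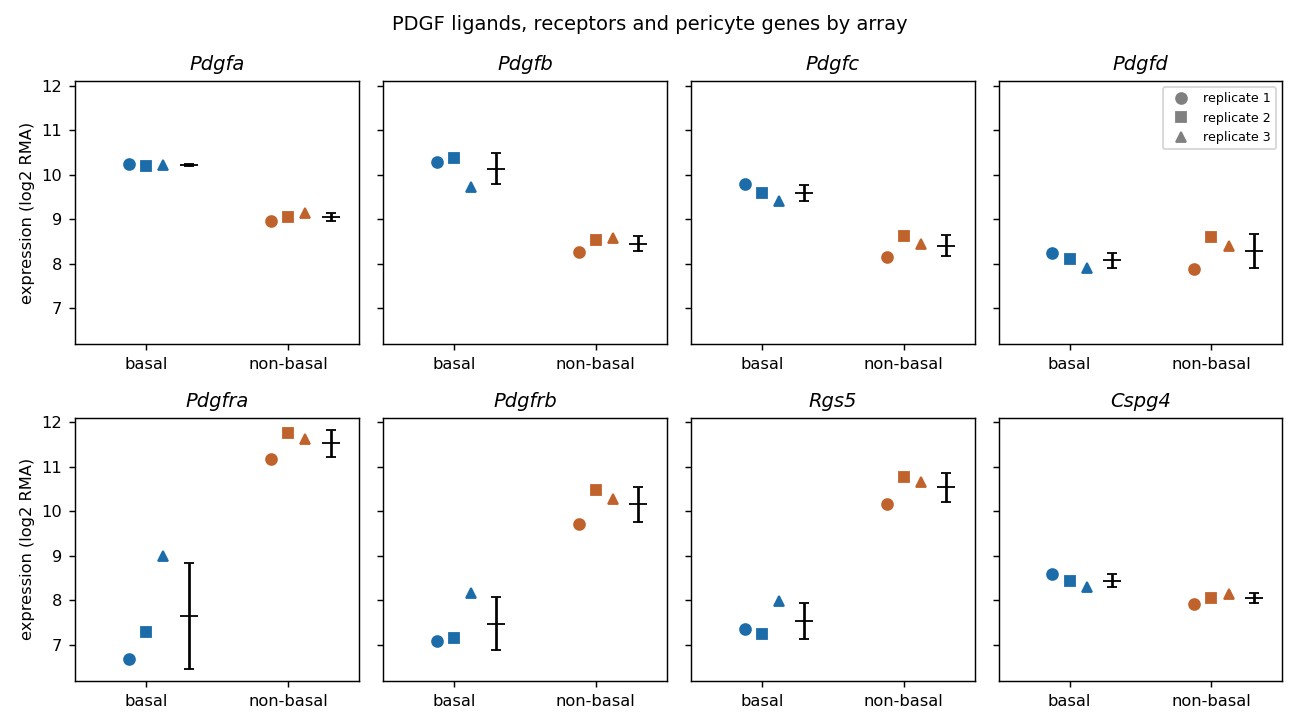
Expression of the 8 genes on the log2 RMA scale (vertical axis) in the 3 basal arrays (left) and the 3 non-basal arrays (right) of each panel; symbols mark replicate numbers, and the bar beside them gives mean ± SD. Pdgfa, Pdgfb and Pdgfc sit higher in all 3 basal arrays, Pdgfra, Pdgfrb and Rgs5 sit lower, and Pdgfd overlaps. Levels in different panels come from different probe sets and are not comparable with each other.

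Pdgfa encodes the PDGF-A chain, a ligand of receptor alpha. It read 10.23, 10.19 and 10.22 in basal replicates 1 to 3, against 8.96, 9.05 and 9.14 in non-basal replicates 1 to 3. The basal arrays were within 0.036 of each other, all above every non-basal array. The log2 difference, basal minus non-basal, was 1.17 ± 0.0693 (SE, n = 3 arrays per fraction; limma adjusted p = 0.00176), a 2.24-fold higher level. This call held in each of the 6 fits with 1 array left out, with adjusted p from 0.00224 to 0.0181.

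Pdgfb encodes the PDGF-B chain, which binds both receptors and is best known as the endothelial signal that recruits pericytes. It read 10.29, 10.38 and 9.73 in basal replicates 1 to 3, against 8.25, 8.52 and 8.57 in non-basal replicates 1 to 3. Basal replicate 3 was the lowest basal array, yet lay 1.16 above the highest non-basal array. Pdgfb had the largest difference of the 4 ligand genes, 1.68 ± 0.192 (limma adjusted p = 0.00438), or 3.21-fold. The 9 endothelial markers that passed went the opposite way, among them Tie1 at -1.60 ± 0.0967 and Emcn, endomucin, at -1.98 ± 0.146 (limma adjusted p = 0.00176 and 0.00206).

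Pdgfc encodes PDGF-C, a ligand of receptor alpha that is secreted in a latent form and freed by proteolysis. It read 9.78, 9.59 and 9.41 in basal replicates 1 to 3, against 8.15, 8.63 and 8.44 in non-basal replicates 1 to 3. The groups were 0.787 apart at their nearest arrays. The difference was 1.19 ± 0.152 (limma adjusted p = 0.00579), close in size to that of Pdgfa, and held in all 6 fits with 1 array left out (highest adjusted p 0.0409).

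Pdgfd encodes PDGF-D, a ligand of receptor beta that is also latent until cleaved. It read 8.23, 8.11 and 7.90 in basal replicates 1 to 3, against 7.87, 8.60 and 8.41 in non-basal replicates 1 to 3. The fractions overlapped, because non-basal replicate 1 was below every basal array. The difference of -0.21 ± 0.203 did not pass (limma adjusted p = 0.524). Its 95% interval, -0.71 to 0.28, excludes a rise of the size seen for the other 3 ligand genes, and covers 0 as well as a moderate decrease. Pdgfd differed from the other ligand genes also in its profile across the 6 arrays, with Pearson correlations of -0.35, -0.23 and -0.14 with Pdgfa, Pdgfb and Pdgfc, which correlated with one another at 0.968 to 0.980. These 6 arrays form 2 groups, so the high values mostly restate the difference between fractions.

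The promoter windows of the 3 ligand genes that were higher together are shown because they are the members that moved in common. They are RefSeq sequences of the GRCr8 assembly, 250 bases before to 50 bases after an annotated start, on the gene's strand, with matches to GGGCGG on either strand in capitals. The windows are chr12:20759116-20759415 (plus strand) for Pdgfa, chr7:113438294-113438593 (minus strand) for Pdgfb and chr2:168614918-168615217 (plus strand) for Pdgfc.
Pdgfa: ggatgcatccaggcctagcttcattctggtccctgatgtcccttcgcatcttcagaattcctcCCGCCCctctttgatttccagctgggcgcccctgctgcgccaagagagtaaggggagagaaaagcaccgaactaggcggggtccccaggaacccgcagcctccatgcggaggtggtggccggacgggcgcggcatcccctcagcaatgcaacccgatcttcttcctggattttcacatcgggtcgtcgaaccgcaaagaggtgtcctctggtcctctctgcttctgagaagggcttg
Pdgfb: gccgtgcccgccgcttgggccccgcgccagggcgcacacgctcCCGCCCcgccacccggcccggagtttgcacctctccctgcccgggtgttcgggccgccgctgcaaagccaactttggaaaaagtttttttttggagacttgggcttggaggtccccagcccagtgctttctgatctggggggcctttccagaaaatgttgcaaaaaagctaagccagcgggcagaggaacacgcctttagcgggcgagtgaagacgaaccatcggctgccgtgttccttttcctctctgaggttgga
Pdgfc: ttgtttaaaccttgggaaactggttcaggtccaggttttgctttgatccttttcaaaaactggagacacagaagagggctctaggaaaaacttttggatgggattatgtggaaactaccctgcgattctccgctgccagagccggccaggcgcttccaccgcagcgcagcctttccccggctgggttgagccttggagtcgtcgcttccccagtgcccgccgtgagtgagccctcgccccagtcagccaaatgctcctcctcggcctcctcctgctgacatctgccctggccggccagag
GGGCGG, the core of the GC box, was present in 1 copy in the Pdgfa and Pdgfb windows, on the minus strand relative to the gene, and was not in the Pdgfc window. It occurs in 33.1% of the 33469 promoter windows of the same length. GC content was 60.0%, 62.0% and 58.0% for Pdgfa, Pdgfb and Pdgfc, against a median of 51.7% over all windows, and CG dinucleotides numbered 17, 22 and 14, against a median of 7. The letters TATAAA (in 14.2% of all windows), TGANTCA (7.33%) and CCAAT (37.5%), searched on both strands, and the CArG box (1.64%) were in none of these 3 windows. The traits were not particular to the genes that were higher. The windows of Pdgfd and Cspg4, which did not pass, had 60% and 62% GC, 12 and 18 CG dinucleotides, and 1 and 2 copies of GGGCGG. These matches describe the sequence and identify no binding site.

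Both receptor genes were lower in the basal fraction. Pdgfra, the receptor for PDGF-A and PDGF-C homodimers and a marker of fibroblasts, read 6.69, 7.28 and 8.99 in basal replicates 1 to 3, against 11.18, 11.77 and 11.63 in non-basal replicates 1 to 3. The basal arrays were widely spread (SD 1.20), with basal replicate 3 highest, but even that array lay 2.19 below the lowest non-basal array. The difference was -3.87 ± 0.583 (limma adjusted p = 0.00966), that is 14.6-fold lower in the basal fraction, and only 0.0771% of all genes had a log2 difference as low or lower. The call was lost without basal replicate 2, non-basal replicate 2 or non-basal replicate 3 (limma adjusted p = 0.0592, 0.0528 and 0.0604), and without basal replicate 3 the difference was -4.54 (adjusted p = 0.00181).

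Pdgfrb, the receptor for PDGF-B and PDGF-D and the classical receptor of pericytes, read 7.09, 7.16 and 8.16 in basal replicates 1 to 3, against 9.70, 10.48 and 10.27 in non-basal replicates 1 to 3. Basal replicate 3 was again the highest basal array and non-basal replicate 1 the lowest non-basal array, with a gap of 1.55 between them. The difference was -2.68 ± 0.343 (limma adjusted p = 0.00579), or 6.42-fold lower, and it held in all 6 fits with 1 array left out (adjusted p 0.00329 to 0.0440). The order of arrays was that of the fibroblast markers, but also that of the leukocyte markers and of the genes that process or bind PDGFs. The other pericyte markers listed below had mean deviations of -0.742, -0.796 and -0.411 in basal replicates 1 to 3. In non-basal replicates 1 to 3 these were 0.471, 0.752 and 0.725, with replicate 1 the lowest there too. Smooth muscle markers also had their highest basal mean deviation in basal replicate 3, at -0.403, against -0.840 and -0.825 in basal replicates 1 and 2. In non-basal replicates 1 to 3 they lay at 0.720, 0.696 and 0.652, so that replicate 1 was the highest there, where Pdgfrb and the fibroblast markers were lowest. The part of these cells in the receptor differences was not tested.

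The Pdgfra window is shown because this gene had the largest difference of the 8. It lies at chr14:33408467-33408766 (GRCr8, minus strand), with the matches to CCAAT and TGANTCA in capitals.
Pdgfra: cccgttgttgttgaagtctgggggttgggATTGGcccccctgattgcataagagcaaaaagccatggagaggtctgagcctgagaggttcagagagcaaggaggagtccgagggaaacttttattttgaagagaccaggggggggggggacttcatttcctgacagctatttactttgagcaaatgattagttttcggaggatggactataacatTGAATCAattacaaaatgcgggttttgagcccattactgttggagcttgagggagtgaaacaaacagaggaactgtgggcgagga
The first capitals are CCAAT read on the minus strand relative to the gene, and the second are a match to TGANTCA, which with any base at N 7.33% of all windows hold. Like the Pdgfc window it held no GGGCGG. Its GC content was 48.0%, below the median of all windows, and it held 5 CG dinucleotides.

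**Figure D2:**
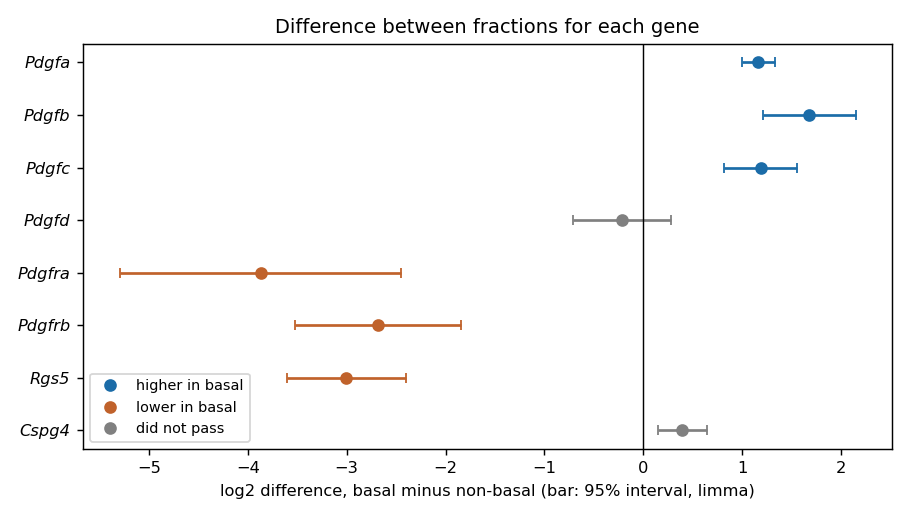
Log2 difference, basal minus non-basal (horizontal axis), for each of the 8 genes, with the 95% interval from limma over 3 arrays per fraction; colours give the call at an adjusted p under 0.05. The intervals of Pdgfa, Pdgfb and Pdgfc lie above 0 and those of Pdgfra, Pdgfrb and Rgs5 below; the unadjusted interval of Cspg4 lies above 0 although its adjusted p was 0.0532.

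Each ligand gene was set against a receptor gene whose product binds that ligand, by taking the ligand minus receptor value within each array. PDGF-B binds both receptors, but Pdgfb was set against Pdgfrb only. Because the probe sets differ, only the change of this value between fractions can be read, so it is given relative to its non-basal mean. For Pdgfa over Pdgfra it was 6.01, 5.39 and 3.71 in basal replicates 1 to 3, against 0.26, -0.24 and -0.01 in non-basal replicates 1 to 3. The fractions were far apart, and basal replicate 3 was the lowest of the basal arrays for every pair.

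The ligand-to-receptor ratio was 32.8-fold higher in the basal fraction for Pdgfa over Pdgfra (log2 5.04 ± 0.703, SE, n = 3 arrays per fraction). It was 33.4-fold higher for Pdgfc over Pdgfra (5.06 ± 0.793) and 20.6-fold higher for Pdgfb over Pdgfrb (4.36 ± 0.564). For Pdgfd over Pdgfrb, where the ligand gene itself did not pass, it was 5.54-fold higher (2.47 ± 0.439). In each of the 4 pairs the two-sided exact permutation test over the arrays gave p = 0.1, also after adjustment over the 4 pairs. That is the smallest p that 3 against 3 arrays allow, so this test could not pass 0.05. For the 3 pairs with Pdgfa, Pdgfb and Pdgfc, ligand and receptor values each parted the fractions, in opposite directions. The separation of their ratios follows from this and is no separate finding. With 1 array left out the log2 value ranged from 4.55 to 5.70 for Pdgfa over Pdgfra and from 2.21 to 2.90 for Pdgfd over Pdgfrb. The receptor's difference was of larger size than the ligand's in every pair: the Pdgfra difference of -3.87 stood beside 1.17 for Pdgfa and 1.19 for Pdgfc, and the Pdgfrb difference of -2.68 beside 1.68 for Pdgfb.

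**Figure D3:**
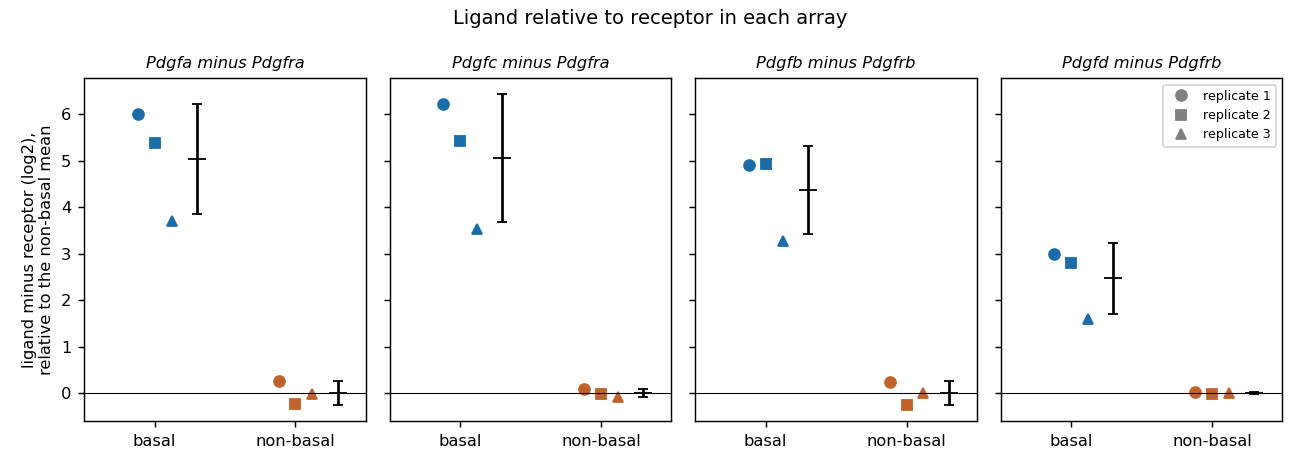
Ligand minus receptor value within each array (log2, vertical axis), relative to the non-basal mean, for 4 ligand and receptor pairs, with the 3 basal arrays on the left and the 3 non-basal arrays on the right of each panel and bars for mean ± SD. For each pair all basal arrays lie above all non-basal arrays, basal replicate 3 being the lowest basal array, at 3.71 for Pdgfa over Pdgfra and 1.60 for Pdgfd over Pdgfrb.

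Of the 2 pericyte genes, Rgs5 was lower in the basal fraction and Cspg4 did not pass. Rgs5, a regulator of G-protein signalling that is abundant in pericytes and vascular smooth muscle, read 7.36, 7.25 and 7.99 in basal replicates 1 to 3, against 10.16, 10.78 and 10.67 in non-basal replicates 1 to 3. No basal array came within 2.18 of a non-basal array. The difference was -3.00 ± 0.248 (limma adjusted p = 0.00234), and it held in all 6 fits with 1 array left out. Its window, shown because Rgs5 fell with the receptors, is chr13:84380827-84381126 (GRCr8, plus strand), with the match to GGGCGG in capitals.
Rgs5: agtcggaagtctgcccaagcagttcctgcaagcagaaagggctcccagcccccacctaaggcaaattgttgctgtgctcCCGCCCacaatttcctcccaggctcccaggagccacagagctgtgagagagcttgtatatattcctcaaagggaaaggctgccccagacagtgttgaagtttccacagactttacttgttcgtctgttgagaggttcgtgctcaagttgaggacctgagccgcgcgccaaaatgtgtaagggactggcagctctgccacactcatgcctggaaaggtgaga
It held 1 GGGCGG, like the windows of Pdgfa, Pdgfb and Pdgfd, where that of Cspg4 held 2. The GC content of the Rgs5 window was 54.3%, with 7 CG dinucleotides, the median of all windows.

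Cspg4 encodes the NG2 proteoglycan, a surface protein of pericytes and of glial progenitors that in human skin is also found on epidermal keratinocytes. It read 8.58, 8.44 and 8.30 in basal replicates 1 to 3, against 7.93, 8.06 and 8.15 in non-basal replicates 1 to 3. The values did not overlap but were 0.143 apart at the nearest arrays, with the basal fraction on the higher side. The difference of 0.39 ± 0.102 did not pass (limma adjusted p = 0.0532, unadjusted p = 0.00813). It lies so near the threshold that its call changed with the processing. It passed with array weights (limma adjusted p = 0.0161), after median centring of each array (0.0285), with either filter on dim genes (0.0463 and 0.0358) and without basal replicate 3 (0.0335). It did not pass with the replicate block (0.139), quantile normalization (0.0631), robust spread with an intensity trend (0.0556) or the mean of probe sets (0.0528). Nor did it pass in the other 5 fits with 1 array left out (highest limma adjusted p 0.16). The 95% interval of 0.15 to 0.64 holds no decrease of the size seen for Rgs5.

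Most other pericyte markers were lower as well. Of 19 measured genes on that list, 14 were lower, 1 was higher and 4 missed the threshold, where 7.14% of all genes were lower and 7.71% higher. The median log2 difference of the list was -1.31, where that over all genes was 0.00343. With 1 array left out, 10 to 13 were lower. Abcc9 and Kcnj8, which encode the subunits of a potassium channel of mural cells, had differences of -1.61 ± 0.119 and -1.94 ± 0.263 (limma adjusted p = 0.00208 and 0.0071). Notch3, the Notch receptor of mural cells, was lower at -0.87 ± 0.0787, Mcam (CD146) at -2.17 ± 0.210 and Vtn, vitronectin, at -2.33 ± 0.218 (limma adjusted p at most 0.00304). The member that was higher was Tbx2, a T-box transcription factor, at 0.45 ± 0.0928 (limma adjusted p = 0.0268), and with 1 array left out the number higher was 2 without basal replicate 3 and 0 without any other array. Tbx18, a T-box factor of mural cells, was at -0.04 ± 0.0739 and did not pass. Kcnj8, Tbx2 and Tbx18 were picked out after their values were seen.

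Of 13 measured genes that process or bind PDGFs, none was higher by limma, 5 were lower and 8 did not pass, with 7 at an unadjusted p under 0.05. The shares over all genes were 7.71% higher and 7.14% lower. Plat encodes tissue plasminogen activator, which frees PDGF-C, and was lower at -1.07 ± 0.175 (limma adjusted p = 0.0124), and still passed after the loss of 1 array in 2 of 6 fits. Plau and St14, whose proteases urokinase and matriptase act on PDGF-D, were at 0.03 ± 0.137 and 0.43 ± 0.229, and Furin, a convertase of the PDGF-A and PDGF-B precursors, was at -0.04 ± 0.0880. None of these 3, named after their values were seen, passed (limma adjusted p = 0.914, 0.264 and 0.818). Sparc, a matrix protein that binds PDGF-B, was lower at -1.52 ± 0.155, Lrp1, an endocytic receptor that associates with receptor beta, at -1.95 ± 0.220, and Lox, lysyl oxidase, at -3.19 ± 0.444 (limma adjusted p = 0.00337, 0.00434 and 0.0076). Without basal replicate 2, non-basal replicate 2 or non-basal replicate 3 the number that were lower was 3.

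Genes downstream of the receptors went both ways. Of 32 measured signal transduction genes, 7 were higher, 3 were lower and 22 missed the threshold, and the median log2 difference was 0.12. Among all genes tested, 7.71% were higher and 7.14% lower. Src, the founding kinase of its family, was higher by 1.23 ± 0.0880 and its relative Fyn was lower at -1.27 ± 0.205 (limma adjusted p = 0.00206 and 0.0120). The adaptor gene Gab1 was higher by 0.77 ± 0.111 and the phosphatase gene Ptpn1, whose product dephosphorylates receptor kinases, by 0.82 ± 0.134 (limma adjusted p = 0.00844 and 0.0126). These genes serve many receptors besides those of PDGF. The number higher was 2 when basal replicate 1 or 2 was left out, 3 when non-basal replicate 2 was and 1 when non-basal replicate 3 was. The number lower was 0 in the fits that lacked basal replicate 1 or 2, or replicate 3 of the non-basal fraction. With array weights 12 were higher, and with centring 11. The calls of Fyn and Ptpn1 each held in 3 of 6 such fits and that of Gab1 in 4.

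Among the other class III receptor tyrosine kinases, the family of the PDGF receptors, and their ligands, 1 of 6 measured genes was higher and 2 were lower. Over all genes these shares were 7.71% and 7.14%. Kitlg, the ligand of Kit, was higher by 1.27 ± 0.182 (limma adjusted p = 0.00832), a size near that of Pdgfa. The macrophage growth factor genes Il34 and Csf1 were lower at -0.91 ± 0.183 and -0.82 ± 0.180 (limma adjusted p = 0.0246 and 0.0331). The receptor gene Kit was at -0.34 ± 0.0856 and did not pass (adjusted p = 0.0511). Few of these calls withstood the loss of an array: that of Kitlg held in 4 of 6 fits, Il34 in 2 and Csf1 in 1. With the replicate block Csf1 did not pass (limma adjusted p = 0.0566). The number lower was 0 when any basal array or non-basal replicate 3 was left out, and 1 when non-basal replicate 2 was.

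**Figure D4:**
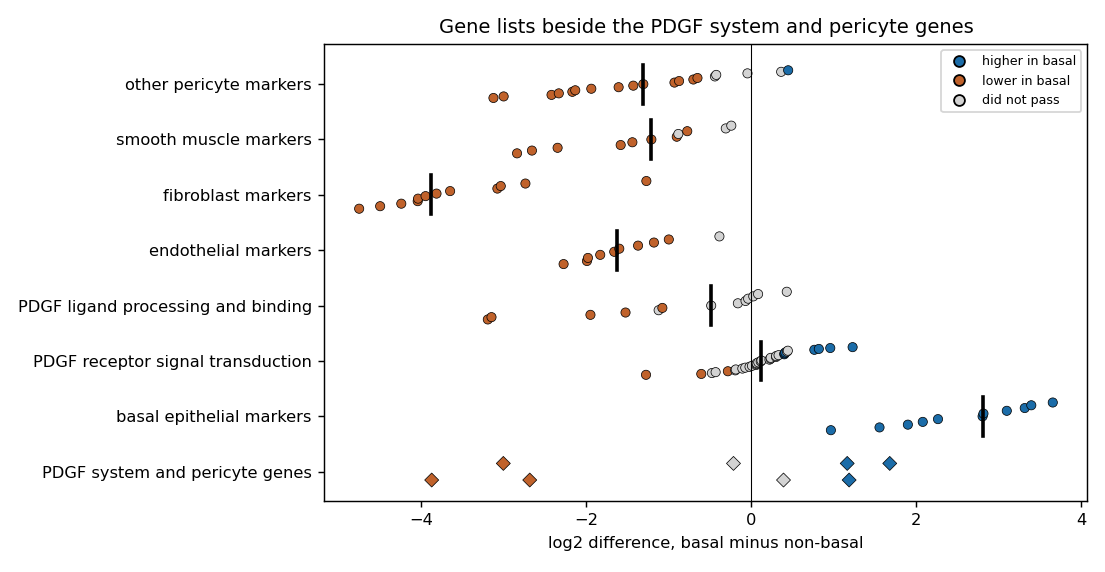
Log2 difference, basal minus non-basal (horizontal axis), of every measured gene of 7 lists (circles, with a vertical line at the list's median) and of the 8 PDGF system and pericyte genes (diamonds, bottom row); colours give the call. Pericyte, smooth muscle, fibroblast and endothelial markers lie mostly below 0, basal epithelial markers above 0, and the signal transduction genes around 0 with a median of 0.12.

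The genes most like each member were taken as those with the smallest root mean square difference of centred log2 values over the 6 arrays. For Pdgfa these included the small heat shock protein gene Hspb1 (0.0639) and Nid2-ps16 (0.0660). For Pdgfb they were Fjx1 (0.0341), Bcam, a laminin-binding adhesion protein (0.0662), and Bcar3 (0.0736), and for Pdgfc they were Eif4e3 (0.0559), Gnptab (0.0637) and Adgrl2 (0.0652). Each of these 8 genes was higher in the basal fraction, which follows from the choice by profile and is no separate finding. With 1 array left out the call held in 3 of 6 fits for Gnptab (highest limma adjusted p 0.0606), in 5 for Eif4e3 and in all 6 for the others.

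Pdgfra was closest to the microfibril gene Mfap4 (0.0621) and the fibrillar collagen genes Col3a1 (0.122) and Col1a2 (0.151). Their calls, which likewise follow from the choice by profile, held in 4, 3 and 3 of 6 such fits. Pdgfrb was closest to the laminin chain gene Lama4 (0.0825), the fibroblast transcription factor gene Tcf21 (0.0940) and the elastin gene Eln (0.103). Rgs5 was closest to Enpp3 (0.136), the basement membrane collagen gene Col15a1 (0.137) and the matrix Gla protein gene Mgp (0.152). Pdgfra, Pdgfrb and Rgs5 correlated with one another at 0.978 to 0.993 over the 6 arrays, which share the parting into 2 fractions.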

How the data were processed

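Total RNA was labelled with biotin and hybridised to RaGene 2.0 ST arrays. The authors deposited log2 values that Affymetrix Expression Console made by RMA, per the submitters' processing notes. Its version and probe set library are not given in the sources used here. RMA equalises the arrays' distributions, so a shift common to most genes would be removed, and it compresses very dim and very bright signals. The number of arrays limits the precision.

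Of 36685 probe sets, 18511 carried 1 symbol in the platform annotation, 575 several and 17599 none. For genes with several probe sets (291) the one with the highest mean was used, giving 18166 genes. Differences were fitted with limma 3.58.1 in R 4.3.3, without a block, two-sided, with 4 residual degrees of freedom before moderation, and no filter on dim genes. Members, lists and tests were chosen with earlier results of these data known. Named genes were the 8 members, up to 4 genes of the smallest p per list, and the 3 nearest genes of each member that passed. The nearest genes left out symbols that start with LOC, RGD, Mir, Snor, Olr or Vom. Genes named outside this rule are marked in the text.

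Replicate numbers were checked as pairs: same-numbered arrays correlated at 0.0312, 0.0383 and 0.0278 in their deviations from the fraction means. This check does not settle whether the numbers pair arrays. Because the labels state no pairs, the main fit did not treat the numbers as pairs. Alternatives were the replicate block, quantile normalization, median centring, robust spread with an intensity trend, array weights, a minimum fraction mean of 5 or 7, the mean of probe sets, and arrays left out. Sequences were copied from RefSeq tables. Pdgfrb has no promoter shown, and the gene nearest to Pdgfa is not reported here.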

Additional observations from a re-analysis of the deposited data

How the results depend on the processing

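The sign of each member's log2 difference was the same under every alternative run. With 1 array left out it ranged from 1.12 to 1.21 for Pdgfa, 1.56 to 1.88 for Pdgfb, 1.06 to 1.30 for Pdgfc, -0.42 to -0.06 for Pdgfd, -4.54 to -3.39 for Pdgfra, -3.03 to -2.49 for Pdgfrb, -3.23 to -2.86 for Rgs5 and 0.32 to 0.47 for Cspg4. The ligand minus receptor value ranged from 4.49 to 5.82 for Pdgfc over Pdgfra and from 4.09 to 4.91 for Pdgfb over Pdgfrb. Cspg4 passed at 0.49 after centring, at 0.39 with either filter, at 0.40 with array weights and at 0.41 without basal replicate 3 and non-basal replicate 1, where Pdgfra was at -4.71. Filters test fewer genes, and for the other settings the cause was not tested. Centring moved the median of all genes to 0.102, so the 0.49 of Cspg4 is 0.39 above it.

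Over all genes, 1401 were higher and 1297 lower. With 1 array left out these counts were 509 to 2068 and 542 to 1607. They were 2868 and 2323 with array weights, and 2499 and 2124 without basal replicate 3 and non-basal replicate 1. With centring they were 2166 and 1177, so that 64.8% of calls were higher, against 51.9%. The replicate block gave 982 and 1027 and changed no call among the 8 genes and, among the other genes chosen by the naming rule, that of Csf1 alone, with Pdgfa at 1.17 (adjusted p = 0.0107) and Pdgfra at -3.87 (adjusted p = 0.0153). Basal replicates 1 to 3 each correlated best with the non-basal array of the same number. The lead was narrow for replicate 1 (0.0312 against 0.027) and replicate 3 (0.0278 against 0.0242). Deviations from a fraction mean are not independent, and the labels state no pairs, so this does not settle whether the numbers pair arrays.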
